A study of Mus musculus with 28 samples.

Results

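The 10 genes described here are Trp53, which encodes the transcription factor p53, 6 genes that p53 is known to induce (Mdm2, Cdkn1a, Ccng1, Phlda3, Sesn2 and Bbc3), and the cell cycle inhibitor genes Cdkn1c, Cdkn2b and Cdkn2a. They were chosen with earlier results of these data known, and taken by symbol as the rows of those names in the deposited tables. All 10 were found among 24946 genes in each of 4 tables. They were followed in mouse epidermis in which Kdm6a was deleted, the gene of a demethylase of histone H3 that lies on the X chromosome and is named Utx in the genotypes.

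In unstressed cells p53 is kept low by MDM2, a ubiquitin ligase whose own gene is a p53 target, so that both form a feedback loop. Stress that stabilizes p53 raises its targets, which halt the cell cycle, limit growth signalling or start apoptosis. The INK4 proteins made from Cdkn2a and Cdkn2b block the kinases CDK4 and CDK6 and so keep RB active, while p21 (Cdkn1a) and p57 (Cdkn1c) also act on CDK2. In epidermis, p21 and p57 are known from cells that leave the basal layer and differentiate, and Cdkn2a from aged and senescent cells.

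Per the labels, every sample was epidermis, and the conditional knockout (cKO) animals carried Krt14-Cre, which acts in keratin-14 expressing tissues. cKO females were Cre+; Utx fl/fl and cKO males Cre+; Utx fl/Y. Control females were Cre-; Utx fl/fl. Control males were Cre-; Utx fl/Y, except young male control 3, which was Cre-; Utx +/Y. All controls thus lacked Cre, so an effect of the transgene cannot be told apart from loss of Kdm6a. A further 3 females were heterozygous (Cre+; Utx +/fl). Ages are given only as young or aged, by the titles of the deposited tables. Values per library were used for 4 control and 5 cKO young females, 3 and 3 young males, 2 and 2 aged females, and 3 and 3 aged males. Replicates were numbered in the order of the samples, and the labels do not say that they were separate animals, so the p-values measure the spread between these libraries.

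Of the 10 genes, 9 had upstream sequence in RefSeq (GRCm38.p6), in 13 windows that reach from 250 bases before a transcription start to 50 bases after it. The windows were searched for the p53 consensus site, made of 2 repeats of 10 bases with no spacer. The site is its own reverse complement in consensus, so the search covers both strands, and no other motif was searched. A match of at least 19 of the 20 bases lay in 29 of 32851 windows of all genes (0.0883%), and Ccng1 and Cdkn1a were among them. Their 250 bases upstream are shown because Ccng1 is the gene that passed the test below and Cdkn1a is the most highly expressed of the 10 per length, with the matched site in capitals. The Ccng1 stretch is chr11:40755287-40755536 on the minus strand, with the site at chr11:40755462-40755481, 195 to 176 bases before the start. The Cdkn1a stretch is chr17:29090729-29090978 on the plus strand, with the site at chr17:29090928-29090947, 51 to 32 bases before the start at chr17:29090979. Cdkn1a has another start at chr17:29093769, whose window held at best 15 of the 20 bases.
Ccng1: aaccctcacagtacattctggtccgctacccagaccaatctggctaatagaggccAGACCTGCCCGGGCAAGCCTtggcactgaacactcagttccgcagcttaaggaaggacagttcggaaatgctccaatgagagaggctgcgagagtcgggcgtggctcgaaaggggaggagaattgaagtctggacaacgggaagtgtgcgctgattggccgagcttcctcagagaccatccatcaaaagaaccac
Cdkn1a: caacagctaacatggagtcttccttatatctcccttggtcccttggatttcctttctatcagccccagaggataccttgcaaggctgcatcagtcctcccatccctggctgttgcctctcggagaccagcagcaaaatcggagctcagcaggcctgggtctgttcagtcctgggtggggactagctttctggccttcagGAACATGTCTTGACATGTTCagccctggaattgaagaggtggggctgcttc
At a looser limit of 17 of 20 bases, a match lay in 2067 windows (6.29%), and Trp53 and Bbc3 joined the matching genes. For Bbc3 it lay before the start at chr7:16309583. The windows of its other starts, chr7:16310261 and chr7:16310431, held at best 15 and 14 of the bases. The Trp53 match (chr11:69580284-69580303, plus strand) and the Bbc3 match (chr7:16309486-16309505, plus strand) are shown to compare with those above.
Trp53: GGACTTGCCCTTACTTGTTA
Bbc3: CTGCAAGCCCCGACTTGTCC
The windows of Mdm2, Phlda3, Sesn2, Cdkn2a and Cdkn2b held no match at that limit, which says only that these letters are not in these windows.

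Expression is given as normalized read counts, the authors' counts scaled per library within each table. Libraries held about 15.8 to 34.4 M reads. A change is the difference of mean log2(value + 1), cKO minus control, and a gene is called at an adjusted p below 0.05. In bulk epidermis, fewer cells of a type and less RNA per cell cannot be told apart. In young females, young males and aged females, each cKO library had less Kdm6a RNA than each control. The log2 change of Kdm6a by limma was -0.50 (adjusted p = 0.03), -0.93 (0.902, not called) and -1.21 (0.0258), in that order. For young males the authors' deposited table gave Kdm6a -0.95 (the authors' adjusted p = 0.0106). Since limma did not call even the deleted gene in young males, the lack of a call there does not show that a gene was unchanged. In aged males the library labelled cKO 5 had 1322 for Kdm6a and 0 for Gh, a growth hormone gene that is at 330.7 or more in every young or aged female cKO library and every young male one, and those labelled control 5 and control 6 had 2443 and 559 for Gh. By Kdm6a, controls 5 and 6 went with their label, at 1224 and 1511, beside 1090 in control 4. Libraries cKO 4 and cKO 6 had 584.5 and 673 for Kdm6a. Because of the Gh values and cKO 5, results in aged males are given also without cKO 5, control 5 and control 6. Leaving out these 3 libraries leaves 1 control and 2 cKO, the lone control being assumed to vary like the others. The 2 aged cKO females had 17.1 and 14.4 for Xist against 20923 and 18431 in their controls, so Kdm6a loss and this difference of the X chromosome cannot be told apart there.

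Of the 10 genes, 1 was called in any of the 4 comparisons: Ccng1, which rose in young cKO females. In young females 9 of the 10 passed the filter on low values and 1 was called, when 3.94% of 13898 tested genes were called and 1.54% were called as higher in cKO. By unadjusted p below 0.05 it was 3 of 9, beside 16.6% of all genes. In young males none of 9 was called by limma and none had an unadjusted p below 0.05, beside 0.0146% called and 2.33% at that unadjusted p of 13743 genes. In aged females none of 9 was called and 2 had an unadjusted p below 0.05, beside 0.669% called and 14.3% at that unadjusted p of 14652 genes. In aged males none of 10 was called and none had an unadjusted p below 0.05, beside 0.014% called and 0.83% at that unadjusted p of 14330 genes. The groups did not overlap for 2 of the 9 genes in young females (8.63% of all genes), for 5 of 9 in aged females (44.3%), and for none of 9 in young males (5.88%) and none of 10 in aged males (4.57%). The median change of the genes that passed the filter was 0.04, -0.03, -0.04 and 0.02 in these 4 comparisons, and that of all tested genes lay between -0.01 and 0.00.

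**Figure D1:**
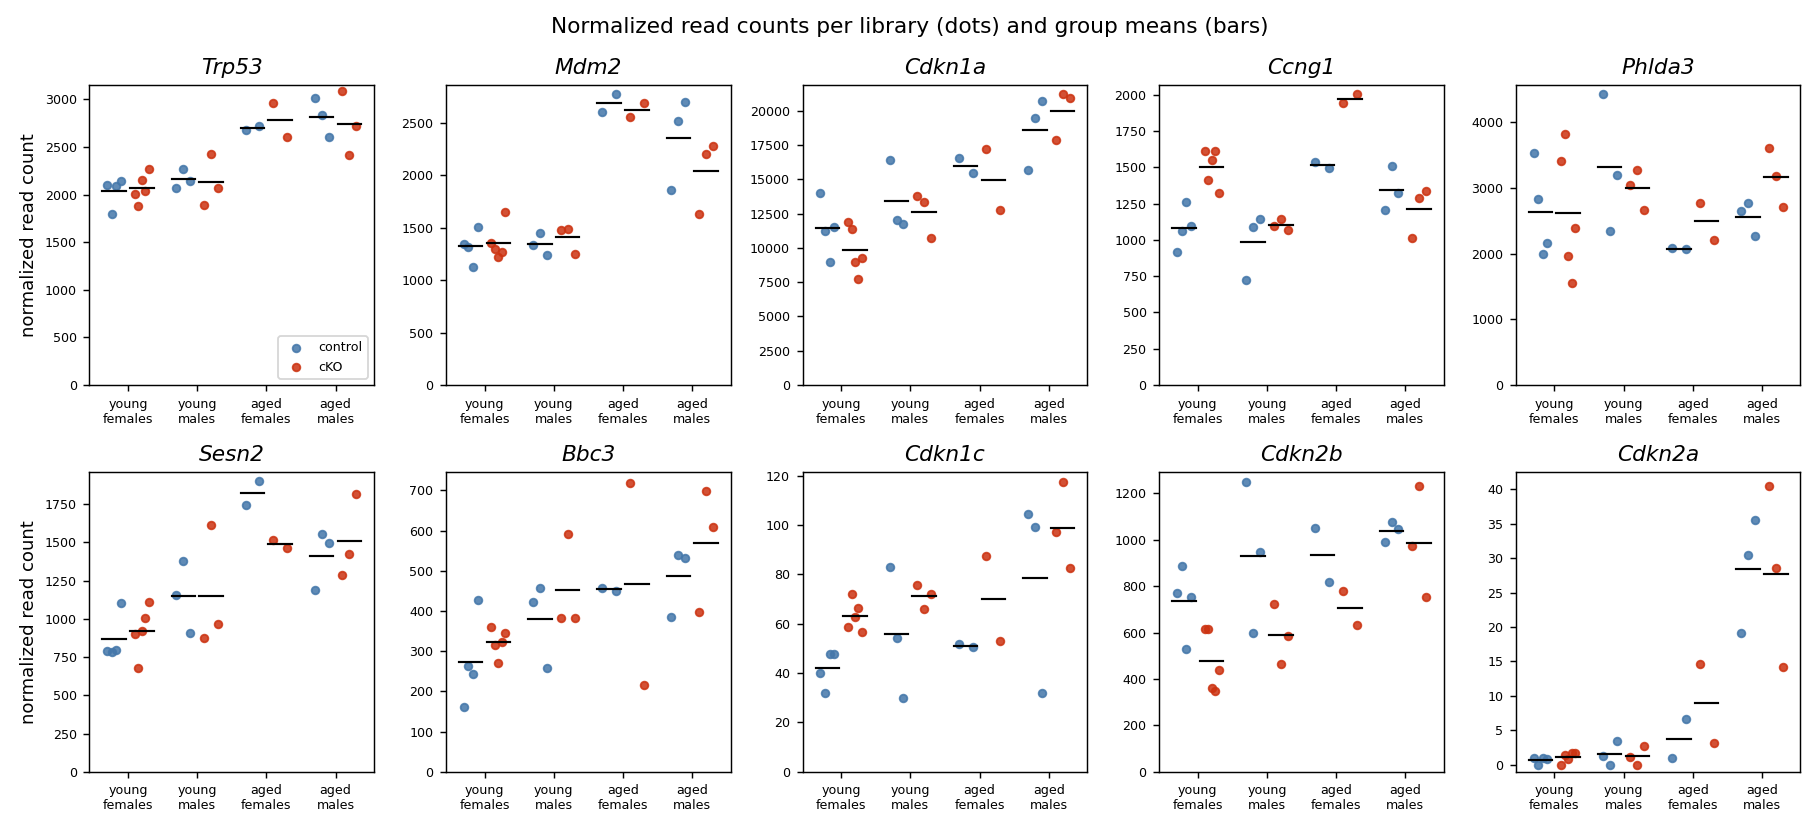
Normalized read count of each of the 10 genes in every library with deposited values (dots; blue, control; red, cKO) and the mean of each group (bars), by table on the horizontal axis. The tables were scaled separately, so only libraries of the same table can be compared; the 5 young female cKO values of Ccng1 lie at 1322 to 1613, above all 4 controls at 914 to 1260.5.

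**Figure D2:**
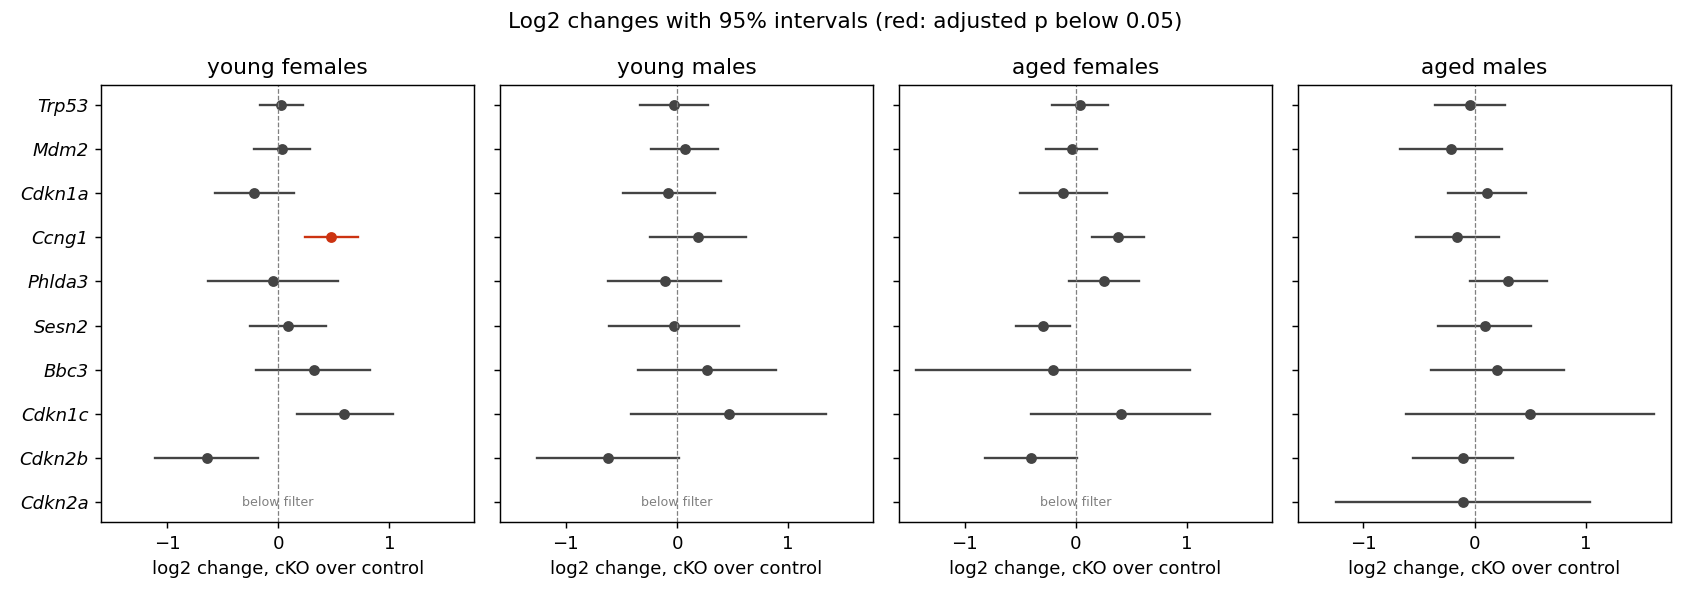
Log2 change of cKO over control for each gene (dots) with its 95% interval from limma (lines), 1 panel per table. Ccng1 in young females, in red, is the called change, and Cdkn2a was below the filter in the 3 tables where it has no dot.

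Per kilobase of exon, Cdkn1a stood first and Phlda3 second in all 4 tables, Bbc3 eighth, Cdkn1c ninth and Cdkn2a last. In young females the mean level per kilobase was 2968 ± 549 (SD, n = 9 libraries of both genotypes) for Cdkn1a and 1685 ± 516 for Phlda3, with ranges of 2174 to 3930 and 996 to 2448 that overlap. Trp53 followed at 508 ± 35.03, Cdkn2b at 425 ± 136 and Ccng1 at 375 ± 72.5, then Mdm2 at 264 ± 30.6 and Sesn2 at 259 ± 43.5. The ranges of Trp53 and Cdkn2b overlapped, as did those of Cdkn2b and Ccng1, of Ccng1 and Mdm2, of Mdm2 and Sesn2 and of Sesn2 and Bbc3. Bbc3 was at 142 ± 36.3, Cdkn1c at 26.4 ± 6.34 and Cdkn2a at 0.822 ± 0.543 per kilobase, and the ranges of these last genes did not meet. In aged males Cdkn1a was at 5429 ± 613 (SD, n = 6) and Phlda3 at 1836 ± 300 per kilobase, with ranges that did not overlap.

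Trp53 (chr11:69580359-69591873, GRCm38) and Mdm2 (chr10:117688875-117710758) form the core of the loop, and neither was called in any table. Trp53 was 1798 to 2139 in the young female controls and 1884.5 to 2263 in cKO, a log2 change of 0.03 (SE 0.09, 95% interval -0.16 to 0.22, adjusted p = 0.901). Its change was -0.03 in young males, 0.04 in aged females and -0.04 in aged males (-0.06 without the 3 libraries), with groups that overlapped in each table. Its replicates were among the closest of the 10 genes, with a coefficient of variation of 7.76% in young female controls and 6.95% in cKO. Mdm2 was 1129 to 1510 in young female controls and 1222 to 1653 in cKO, a log2 change of 0.04 (SE 0.11, 95% interval -0.22 to 0.29, adjusted p = 0.901). In young males Mdm2 had a change of 0.07 (95% interval -0.23 to 0.37) and in aged females -0.04 (-0.27 to 0.19). In aged males it was 1862, 2518 and 2698 in controls and 1627, 2204 and 2282 in cKO, a change of -0.21 (SE 0.20, adjusted p = 0.999) that became 0.05 without the 3 libraries.

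Ccng1 (chr11:40748552-40755311) encodes cyclin G1, a p53 target that recruits the phosphatase PP2A to MDM2. In young females it had values of 914, 1059, 1260.5 and 1098 among controls and of 1612.5, 1412, 1550.5, 1613 and 1322 among cKO libraries. Every cKO library was above every control, as was the case in the upward direction for 3.74% of the genes tested. The mean rose from 1083 ± 142.5 (SD, n = 4) to 1502 ± 130 (SD, n = 5), which is a ratio of 1.39. The log2 change was 0.48 (SE 0.11, 95% interval 0.24 to 0.72, adjusted p = 0.0354). The exact two-sided permutation p was 0.00794, the smallest that 126 splits allow. The call was close to the threshold. Leaving out control 1, 2 or 4, or cKO 1, 2, 3 or 4, ended it (adjusted p 0.0521 to 0.0978, log2 change 0.40 to 0.50), as did libraries rescaled to equal sums (0.0584) and a fit without limma's trend (0.0605).

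The sample titles are library numbers that fall into 3 runs of neighbouring numbers in young females, each with both genotypes. Within these runs the log2 change of Ccng1 was 0.62, 0.33 and 0.27, and with the run as a block in the fit it was 0.45 (adjusted p = 0.00667). The block fit called many more genes in all, 843 as higher and 1168 as lower in cKO, against 214 and 333 without the block. In the same young female libraries, the summed level of 9 Langerhans and myeloid marker genes ran from 21326 to 28025 among controls and from 28370 to 39830 among cKO libraries, without overlap, and all 9 genes had a change above 0. Of these, Csf1r, a receptor gene of macrophages and Langerhans cells, rose by 0.785 on the log2 scale (adjusted p = 0.017). The summed level of 5 erythrocyte markers ran from 709 to 1272 among controls and from 187.5 to 588 among cKO libraries, with Hbb-bs listed at 0 in every library. Of these, the alpha globin gene Hba-a1 fell by 1.38 on the log2 scale (adjusted p = 0.0466), and Hba-a2, another alpha globin gene, fell from 36.7 to 608 in controls to values listed at 0 in all 5 cKO libraries (adjusted p = 0.000684). These near-identical copies can share reads, so their separate values are uncertain. The summed level of 10 hair matrix and shaft markers was 704 to 817 among controls and 486 to 561.5 among cKO libraries, and Hoxc13, a transcription factor gene of hair, fell by 0.63 (adjusted p = 0.0141). Hoxc13 made up most of this sum, with means of 492 in controls and 317 in cKO. Of the list, 4 genes passed the filter, and 1 of them, Krt71, had a change above 0 (0.92, adjusted p = 0.492). The part of these cells in the Ccng1 result was not tested.

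In the other tables Ccng1 was not called. In aged females it was 1533 and 1495 in controls and 1941.5 and 2003 in cKO. Both cKO libraries were above both controls, and the groups did not overlap for 44.3% of all genes tested there. The log2 change of Ccng1 was 0.38 (SE 0.09, 95% interval 0.15 to 0.61, adjusted p = 0.145). The exact p of 0.333 is the smallest that 6 splits allow. In young males it was 722.5, 1088 and 1141 in controls and 1096, 1142 and 1069 in cKO, a change of 0.19 (SE 0.19, adjusted p = 1.0). Control 1 was the lowest, and the change was -0.02 without it. In aged males the change was -0.155 (SE 0.16, adjusted p = 0.999), and -0.05 without the 3 libraries.

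Cdkn1a (chr17:29090976-29100727), the gene of the CDK inhibitor p21 and the best known arrest target of p53, was not called. In young females it was 13964, 11248, 8932 and 11538 in controls and 11887, 11404, 8955, 7724 and 9247 in cKO, with groups that overlap. The log2 change was -0.21 (SE 0.16, 95% interval -0.57 to 0.14, adjusted p = 0.552), so a rise above 0.14 lies outside this interval. The change was -0.08 in young males (95% interval -0.49 to 0.34), -0.11 in aged females (-0.50 to 0.28) and 0.11 in aged males (-0.24 to 0.46), where it was 0.30 without the 3 libraries. The locus overlaps an unclassified minus strand transcript (AC167363.2), and whether reads were counted by strand is not given in the sources used here.

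Phlda3 (chr1:135766119-135769136) encodes a small lipid-binding protein that restrains AKT at the membrane. Its spread in young females was wide in both genotypes. The first run of library numbers held 3531 and 2835 in controls and 3413 and 3816 in cKO. The second run had 1989 in its control and 1957 and 1553 in cKO, and the third 2161 and 2383. Libraries of the first run were thus above all others whatever their genotype, and the change was -0.045 (SE 0.27, 95% interval -0.63 to 0.54, adjusted p = 0.948). In aged males Phlda3 was 2642, 2763 and 2268 in controls and 3610.5, 3183 and 2712 in cKO, a change of 0.30 (SE 0.15, unadjusted p = 0.0779, adjusted p = 0.999, exact permutation p = 0.2), and 0.24 without the 3 libraries. In aged females the change was 0.255 (SE 0.13, adjusted p = 0.452) and in young males -0.11 (SE 0.22).

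**Figure D3:**
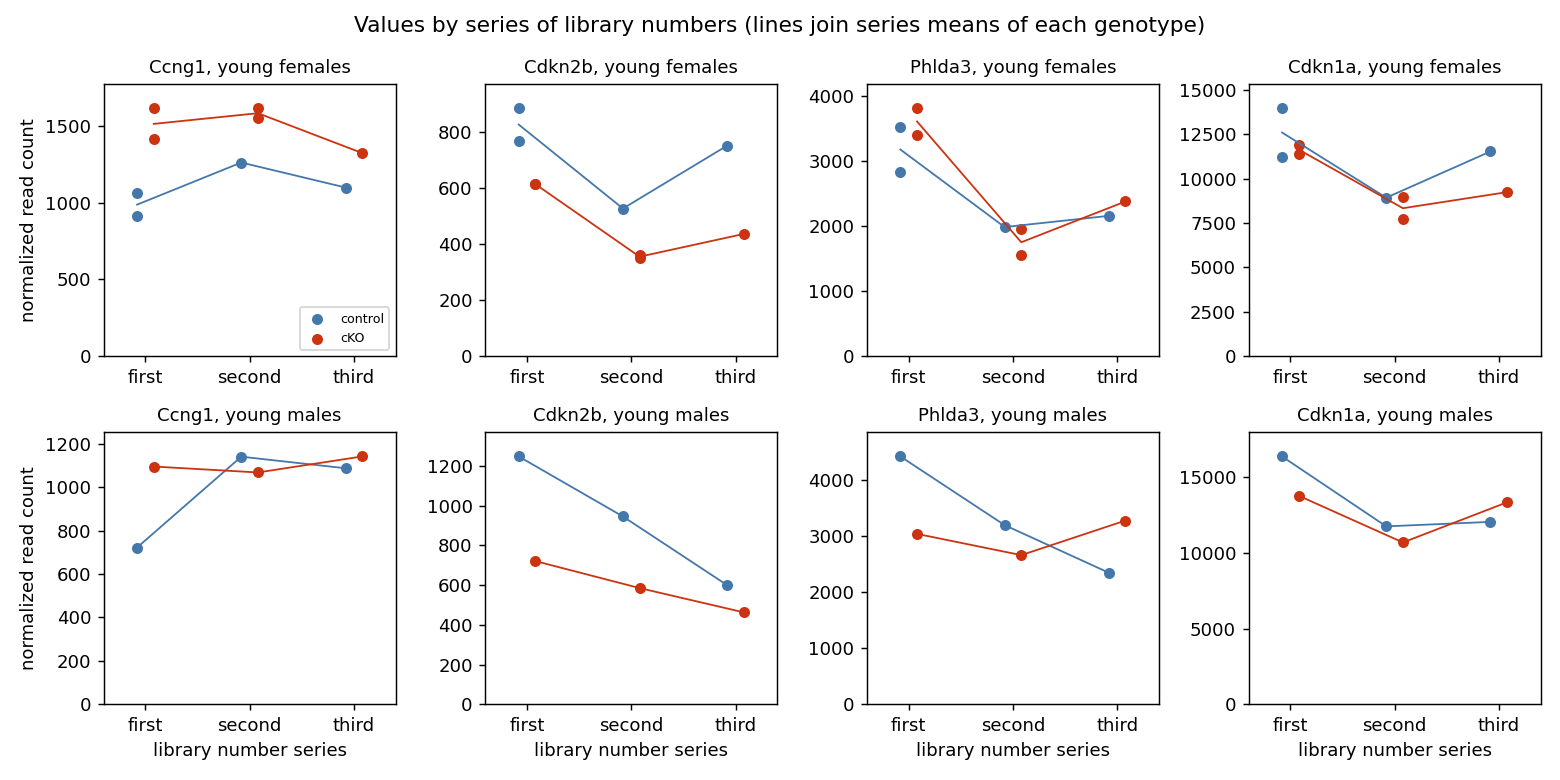
Normalized read counts of Ccng1, Cdkn2b, Phlda3 and Cdkn1a in young females (top) and young males (bottom), split by the run of library numbers in the sample titles (horizontal axis). Dots are libraries and lines join the mean of each genotype in a run; cKO lies below control for Cdkn2b in all 3 runs of both sexes, while Phlda3 in young females follows the run.

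Sesn2 (chr4:132492032-132510501) encodes sestrin 2, a leucine-sensing restraint on the growth kinase TORC1. In young females it was 782 to 1101 across controls and 678 to 1113 across cKO libraries (log2 change 0.09, SE 0.155, 95% interval -0.25 to 0.43, adjusted p = 0.821). In aged females both controls, at 1746 and 1902, were above both cKO libraries, at 1515 and 1463. The groups did not overlap for 44.3% of all genes tested there. The change of Sesn2 was -0.29 (SE 0.10, 95% interval -0.54 to -0.05, unadjusted p = 0.0265, adjusted p = 0.268) and did not pass the test. The change was -0.03 in young males and 0.09 in aged males (0.36 without the 3 libraries). The gene overlaps the noncoding Gm12981.

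Bbc3 (chr7:16308393-16318205) encodes PUMA, the BH3-only protein through which p53 starts apoptosis. In young females it was 160, 264, 244.5 and 428 in controls and 361, 317, 271, 323 and 346 in cKO, a log2 change of 0.32 (SE 0.23, 95% interval -0.20 to 0.83, adjusted p = 0.549). Control 1 was the lowest and control 4 the highest of the 9 libraries. In aged females the controls were at 457.6 and 450.4, and the cKO libraries lay on either side of them at 719 and 215.5, a log2 change of -0.205 (SE 0.51, 95% interval -1.44 to 1.03). The change was 0.27 in young males (95% interval -0.35 to 0.89) and 0.20 in aged males (-0.39 to 0.80; 0.35 without the 3 libraries).

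Cdkn2b (chr4:89306299-89311039) encodes the CDK4 and CDK6 inhibitor p15, which is known as a target of TGF-beta signalling. In young females it was 770, 886, 528 and 753 in controls and 615, 615, 361.5, 350.0 and 437 in cKO, where the low control 3 lies within the cKO range. Control libraries averaged 734 ± 150 (SD, n = 4) and cKO libraries 476 ± 132 (SD, n = 5). The log2 change was -0.64 (SE 0.21, 95% interval -1.11 to -0.18, unadjusted p = 0.0116, adjusted p = 0.14). It did not pass the test over all genes. The exact two-sided permutation p was 0.0476.

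Within the runs of library numbers, Cdkn2b in young females had changes of -0.43, -0.57 and -0.78, so cKO was below control in all 3. With the run as a block the change was -0.55 and was called (adjusted p = 0.00244), in a fit that called 2011 genes in all, against 547 without the block. In young males it was 1248, 600 and 946 in controls 1, 2 and 3 and 721, 463 and 585 in cKO. The groups overlapped, the change was -0.62 (SE 0.28, 95% interval -1.26 to 0.02, adjusted p = 1.0), and within the runs, in the order of the plot by run, it was -0.79, -0.69 and -0.37. In aged females it was 1050 and 819 in controls and 779 and 633 in cKO (log2 change -0.40, SE 0.17, adjusted p = 0.365). In aged males the change was -0.10 (SE 0.19), and -0.21 without the 3 libraries.

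Cdkn1c (chr7:143458339-143461050) encodes p57, and is an imprinted gene expressed from the maternal copy. In young females it was 40.1, 31.8, 47.9 and 47.8 in controls and 58.6, 71.8, 62.9, 66.3 and 56.7 in cKO. Every cKO library was above every control, which was so for 3.74% of the genes tested. The means were 41.9 ± 7.65 (SD, n = 4) and 63.3 ± 6.06 (SD, n = 5), a ratio of 1.51 and a log2 change of 0.60 (SE 0.195, 95% interval 0.17 to 1.03). The exact permutation p was 0.00794, but adjustment over all genes gave p = 0.137, above the threshold. Within the runs of library numbers the change was 0.84, 0.42 and 0.24. It was 0.46 in young males (SE 0.38) and 0.40 in aged females (SE 0.33), where cKO 6 was at 87.3 and the other 3 libraries at 50.4 to 52.8. In aged males it was 0.495 (SE 0.48), and -0.22 without the 3 libraries. The antisense gene Gm44732 overlaps it.

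Cdkn2a (chr4:89274471-89294653) makes the INK4 protein p16 and, from another first exon, the p53-stabilizing ARF protein, which these gene-level values cannot separate. It was at or near the floor in young epidermis, with 0 to 1.04 in young female controls and 0 to 1.76 in cKO, about 3 reads at most. Young males had 0 to 3.50 in controls and 0 to 2.74 in cKO, and no fold is given for either. In aged females it was 0.931 and 6.70 in controls and 14.6 and 3.23 in cKO, below the filter. In aged males it was 19.1, 30.4 and 35.6 in controls and 40.5, 28.6 and 14.1 in cKO, a log2 change of -0.105 (SE 0.49, 95% interval -1.25 to 1.04, adjusted p = 0.999), and 0.32 without the 3 libraries. Scaled to each library's summed values, in parts per M, it ranged from 0 to 0.0911 in young females, 0 to 0.163 in young males, 0.0303 to 0.479 in aged females and 0.473 to 1.34 in aged males. The aged female range overlapped both young ranges, and the aged male range lay above them. The ages were in separate tables, so no difference by age was tested.

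No difference of the cKO change between tables was called for these genes. Between young females and young males, 0.332% of 13535 genes had a called difference and none of the 9 tested here did (adjusted p = 0.999 for each, z test). For Ccng1 the young female change minus the young male one was 0.285 (SE 0.215, 95% interval -0.14 to 0.71), and for Cdkn2b it was -0.025 (SE 0.35, -0.71 to 0.66). Between young and aged females, 0.109% of 13792 genes had a called difference and again none of the 9 did. The largest difference by its z value was that of Sesn2, with 0.09 in young and -0.29 in aged females and a difference of 0.38 (SE 0.185, unadjusted p = 0.0404, adjusted p = 0.999).

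The authors' deposited tables list 7 of the 10 genes as held here, since these tables stop at Olfr577 in alphabetical order, and they are the source for the 3 heterozygous females. For young cKO females, the authors' deposited table gave Ccng1 a log2 change of 0.47 (SE 0.12, the authors' adjusted p = 0.00299). It was the only one of the 7 below 0.05, beside 7.18% of genes, and Cdkn2a had no adjusted p there or in the heterozygous table. In the authors' deposited table for heterozygous young females, none of the 7 was below 0.05, beside 0.271% of genes. Ccng1 was at 0.17 (SE 0.17), Cdkn2b at -0.30 (SE 0.29) and Cdkn1c at 0.27 (SE 0.40). The control mean of Ccng1 was 1326 there and 1083 in the authors' table for young cKO females, and that of Cdkn2b 738 and 735. The heterozygous and cKO changes thus do not share a baseline, and their difference was not tested. The authors' deposited table for young males gave Cdkn2b -0.66 (SE 0.29, the authors' p = 0.0225 and adjusted p = 1.0), with none of the 7 below 0.05 beside 0.126% of genes. The authors' deposited table for aged females gave Ccng1 0.38 (SE 0.13, the authors' adjusted p = 0.0848), with none below 0.05 beside 4.5% of genes. For aged males the authors' deposited table had none of the 7 below 0.05, beside 0.0081% of genes.

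Other genes of these pathways were followed as lists. Of 46 other p53 targets, 43 were tested in young females and 1 was called, when 3.94% of all tested genes were called. Tnfrsf10b, the gene of a death receptor, rose from 173 ± 4.599 (SD, n = 4) to 294 ± 32.35 (SD, n = 5), a log2 change of 0.76 (SE 0.12, adjusted p = 0.00723). Its change was 0.47 in young males (SE 0.19, unadjusted p = 0.0421, adjusted p = 1.0) and 0.70 in aged females (SE 0.15, adjusted p = 0.111). The list's median change in young females was -0.02, and 20 of its 43 tested genes had a change above 0. For all tested genes the median was -0.01, with 49.0% above 0. None of the list was called in the other 3 comparisons. At an unadjusted p below 0.05 there were 8 in young females, 3 in young males, 10 in aged females and none in aged males. Of all tested genes, 16.6%, 2.33%, 14.3% and 0.83% had such a p, in that order. The list had 44 tested genes in aged females and 43 in each other comparison.

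Among 20 regulators of p53, 19 other cell cycle inhibitors, 24 cyclin and CDK genes, 30 proliferation genes repressed through RB and DREAM, 19 apoptosis partners of Bbc3 and 12 imprinted neighbours of Cdkn1c, limma called none in any comparison. At an unadjusted p below 0.05 in young females these lists had 3, 1, 5, 3, 5 and 2 genes, in that order. Their tested genes numbered 20, 19, 24, 30, 17 and 11, and 16.6% of all tested genes had such a p. The proliferation genes had a median change of 0.12 in young females (20 of 30 above 0), 0.08 in young males, 0.14 in aged females (24 of 30 above 0) and -0.01 in aged males. The apoptosis partners had a median of -0.20 in young females, with 4 of 17 tested genes above 0. Of all tested genes, 49.0% were above 0 in young females and 50.8% in aged females. Among 18 stress and TORC1 partners of Sesn2, Castor1, an arginine sensor of the TORC1 pathway, fell by 0.52 on the log2 scale in young females (adjusted p = 0.0224). Among 18 neighbours and regulators of the Cdkn2a locus, Cbx7, a Polycomb protein gene, fell by 0.52 in young females (adjusted p = 0.011). Castor1 and Cbx7 were the only called genes of their lists there, beside 3.94% called among all tested genes. Other genes of both lists had changes on either side of 0, so these single calls do not show a shift of either list.

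Of 19 senescence-associated genes, 14 were tested in young females and 2 were called, in opposite directions, beside 3.94% of all tested genes. Igfbp3, a secreted binding protein of insulin-like growth factors, fell from 7544 ± 1293 (SD, n = 4) to 3246 ± 669 (SD, n = 5), a log2 change of -1.22 (SE 0.16, adjusted p = 0.00284). Igfbp5, of the same family, rose from 221 ± 28.1 to 548 ± 153, a change of 1.27 (SE 0.21, adjusted p = 0.00886). In aged females Igfbp3 fell by 1.11 on the log2 scale (adjusted p = 0.0391) and was the only gene called of the 10 pathway lists there, while Igfbp5 had a change of 1.27 (adjusted p = 0.187). In young males and aged males none of the 10 pathway lists had a called gene.

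**Figure D4:**
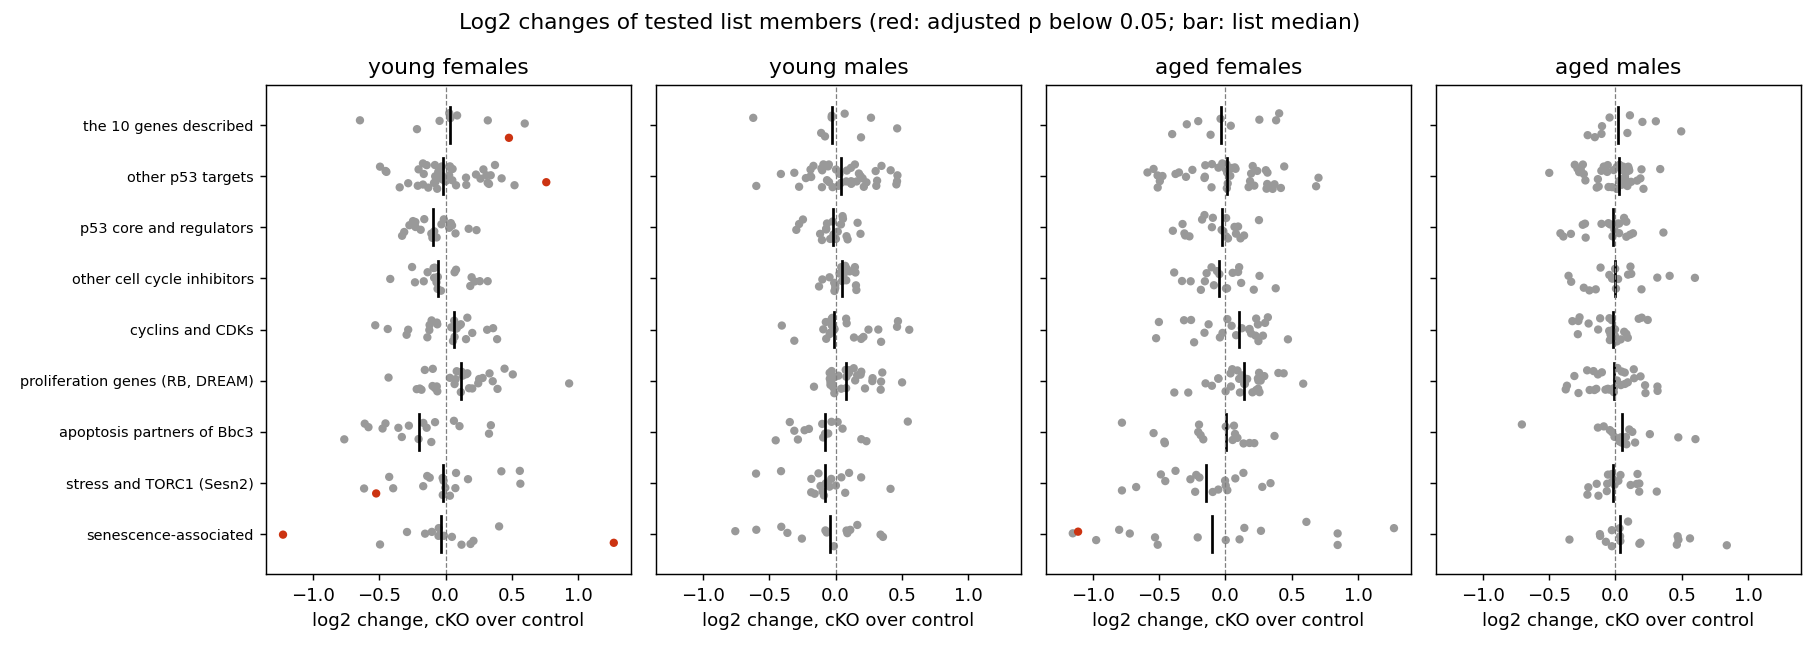
Log2 change of cKO over control for each tested gene (dots) of the 10 genes described and of 8 other lists, 1 panel per table, with the list median as a bar. Red dots are called genes, which are Ccng1, Tnfrsf10b, Castor1, Igfbp3 and Igfbp5 in young females and Igfbp3 in aged females; the list medians lie near 0.

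Markers of keratinocyte state also moved in the young female libraries. The suprabasal keratin gene Krt1 and the envelope gene Ivl, both of differentiating cells, rose by 1.25 and 1.33 on the log2 scale (adjusted p = 0.00322 and 0.00834), while the basal cadherin gene Cdh3 fell by 0.63 (adjusted p = 0.0176). These were the called genes of their lists: of 9 suprabasal genes tested, 4 had a change above 0 (median -0.01), and of 10 basal genes 3 did (median -0.16). The summed levels of 10 basal markers (515611 to 629390 in controls and 534064 to 634530 in cKO) and of the 9 suprabasal markers in the table (540610 to 744767 and 492871 to 866510) overlapped between genotypes. Their part in the values of the cell cycle inhibitor genes was not tested.

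Over the 25 libraries, after removal of each genotype's mean in each table, log2 values of Phlda3 and Cdkn2b went together most closely (Pearson r = 0.77, Spearman rho = 0.73). Cdkn1a followed both Phlda3 (r = 0.73, rho = 0.66) and Cdkn2b (r = 0.66, rho = 0.66), and Mdm2 followed Sesn2 (r = 0.61, rho = 0.65). Ccng1 ran against Phlda3 (r = -0.53, rho = -0.56), and Trp53 against Cdkn2b (r = -0.53, rho = -0.53). Without the 2 libraries farthest from the median, these 6 values of r were 0.71, 0.65, 0.56, 0.56, -0.44 and -0.53. Libraries of a table share its scaling and some share a run of numbers, so these are descriptions of 36 pairs of genes, with no test.

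**Figure D5:**
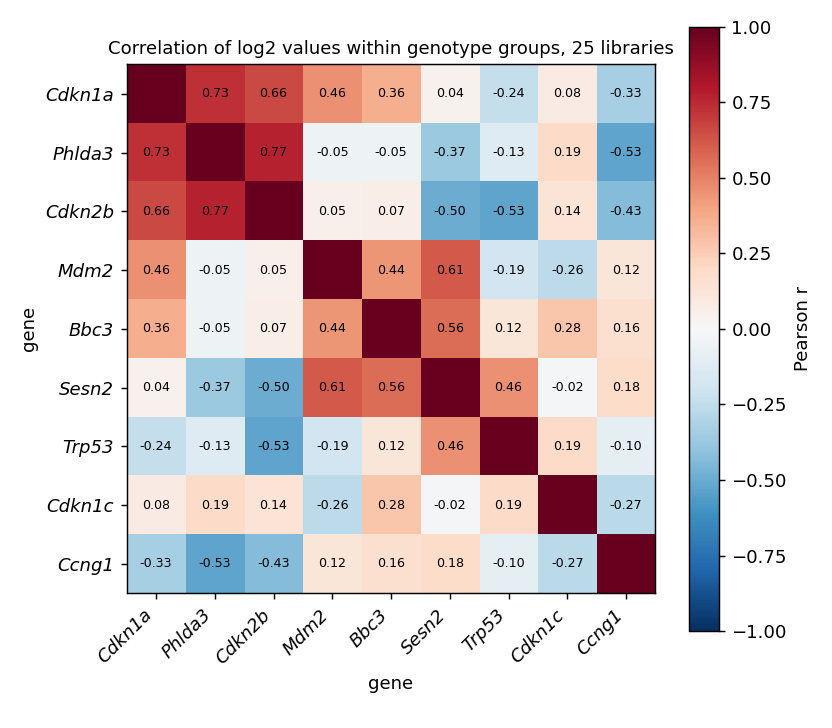
Pearson r between log2 values of 9 of the genes over 25 libraries, after removal of the mean of each genotype in each table; Cdkn2a, below the filter in 3 tables, is left out. Cdkn1a, Phlda3 and Cdkn2b form a block with r from 0.66 to 0.77.

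Likeness was measured over 10216 genes that averaged 100 or more in each table and were not merely predicted. Of these, the 3 whose log2 values were most like those of Ccng1 over the 25 libraries, centred on each table's mean, were Smim10l1 (r = 0.87), Serinc1 (r = 0.86) and D6Wsu163e (r = 0.84). For Cdkn1a they were Ube2s (r = 0.86), Rasl10a (r = 0.86) and Rhod (r = 0.85).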

How the data were processed

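Poly(A) RNA of mouse epidermis was sequenced; per the labels' protocols, the library kit keeps the strand. The authors deposited, per library and gene, normalized signal values (read counts scaled by library), in 4 tables scaled separately; these are not whole counts. The submitters' processing notes name STAR, DESeq2, GRCm38 and mm10, without roles. The counting program and annotation are not given in the sources used here. The authors' comparison tables hold, per the file headers, mean signal values, log2 fold changes, a test score, and p-values with and without adjustment.

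Groups follow the labels' genotypes. Values were tested with limma 3.58.1 (R 4.3.3, intensity trend) on log2(value + 1) in each table, where a gene had to reach 10 in at least the number of libraries of the smaller group. P-values were adjusted by Benjamini-Hochberg over all genes tested, with a threshold of 0.05. Adjusted p-values are limma's unless the authors' deposited table is named. The fit was tested on simulated data. Single genes were also compared by an exact two-sided permutation test, and differences between tables by a z test on the changes. Depth, as the sum of values over the value of 1 read, was 15.8 to 34.4 M reads; it is approximate, so no counting intervals are given.

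The 10 genes and all lists were chosen with earlier results of these data known. The rule for other genes named the called genes of each list, at most 4 per list and comparison, the 3 genes most like Ccng1, Cdkn1a and Cdkn2a (not given for Cdkn2a, which was near 0 in most libraries), genes that check sex and deletion, and genes that a result turns on. Marker lists for hair follicle stem cells, sebaceous gland, fibroblast, endothelium, skeletal muscle, melanocyte, T cell and immediate early genes had no called gene in any comparison, and the adipocyte list had 1, Adipoq in aged females (log2 change -3.03). Alternatives were other scalings, pseudocounts (0.5 and 5) and filters (none, and 50), limma without trend or with array weights, a block for runs of library numbers, and leaving out each library. Coordinates are from GENCODE for GRCm38; 24464 of 24946 symbols (98.1%) matched.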

Additional observations from a re-analysis of the deposited data

Results flagged for a closer look

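In young females, the Trp53 value of control 2, 1797.6, lay apart from the other 3 controls (2090 to 2139), with a gap that is 0.857 of the range of the group, above Dixon's 95% critical value for 4 libraries. The Sesn2 value of control 4, 1101.2, lay above the other 3 (782 to 797), with a gap of 0.955 of the range. Of 18 groups tested, 2 were flagged, and chance flags about 1 in 20. Neither gene was called with or without these libraries.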

How the results depend on the processing

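Of 573 values of the 10 genes' log2 changes under alternatives, 522 kept their direction and side of the threshold, 41 reversed, 9 fell short of the threshold and 1 passed it. In young females the number of the 10 genes called was 0 with equal sums or without trend, and 2 with the block for runs of library numbers (Ccng1 and Cdkn2b), which called 2011 genes in all. Phlda3 in young females became 0.01 with quantile normalization, 0.004 with equal sums and 0.062 with the block. In young males, 1 gene in all was called without trend and 7 with the block, and with array weights Cdkn1a was 0.002, Phlda3 0.021 and Sesn2 0.044. In aged females, 65 genes were called with quantile normalization, 1 without the filter, 7 without trend and 431 with the block, and Mdm2 was 0.029 with quantile normalization. In aged males, none was called with the filter at 50, where the main fit called 2, and Sesn2 was -0.052 with array weights. Without the 3 libraries against their label, aged males had 58 calls, with Mdm2 at 0.049, Cdkn2a at 0.317 and Cdkn1c at -0.22. The causes were not tested.

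Leaving out 1 library at a time gave 274 to 435 called genes in young females, 1 to 3 in young males, 13 to 30 in aged females and 0 to 1 in aged males, and 0 to 1 of the 10 genes in young females. Reversals lay within these ranges of the log2 change. In young females they were -0.03 to 0.061 for Trp53, -0.038 to 0.102 for Mdm2 and -0.2 to 0.124 for Phlda3. In young males they were -0.127 to 0.052 for Trp53, -0.016 to 0.313 for Ccng1, -0.165 to 0.074 for Cdkn1a, -0.334 to 0.123 for Phlda3 and -0.299 to 0.144 for Sesn2. In aged females they were -0.054 to 0.133 for Trp53, -0.083 to 0.009 for Mdm2, -0.327 to 0.103 for Cdkn1a and -1.072 to 0.662 for Bbc3. In aged males they were -0.133 to 0.043 for Trp53, -0.01 to 0.191 for Cdkn1a, -0.429 to 0.299 for Cdkn2a, -0.276 to 0.08 for Cdkn2b, -0.054 to 0.787 for Cdkn1c and -0.051 to 0.198 for Sesn2. Where 1 library of a group was left, it was assumed to vary like the others.

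No paired analysis was possible because the labels carry no replicate numbers; the block is by runs of numbers in the titles, which no label calls a batch. Trimmed-mean scaling was not run, because the deposited values are not counts. The aged comparisons rest on 2 libraries a group in females and on libraries of doubtful label in males, and reads of Cdkn2a in young epidermis were too few to compare.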
